A study of Apis mellifera with 27 samples.

Results

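The comparison set foragers taken at 10:00 of day 11 against foragers taken at 02:00 of day 12, with 4 RNA-seq libraries at each time. These 8 libraries, chosen by their labelled time, are part of 27 that cover 7 time points. The libraries hold polyadenylated RNA of brain tissue in which small Kenyon cells were enriched, cut out of the mushroom bodies by laser capture microdissection, from honey bees (Apis mellifera) trained to a feeding time. Each time had 2 libraries from colony 2 and 2 from colony 1, and the colonies' experiments were run separately. Neither group carried a genetic change or a drug. The hour of training, the light conditions, the age of the foragers and the number of bees behind a library are not given in the sources used here. Nothing in the labels ties a replicate to its own bees. The p-values therefore cover the spread between libraries, which may be technical. A library is written with its colony and replicate, as in C2R1.

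Mushroom bodies are paired centres of the insect brain in which odours and other cues are tied to reward, and small Kenyon cells are one class of their intrinsic neurons. Daily rhythms in animals rest on a feedback loop in which the proteins of period (Per) and cryptochrome repress their own transcription. In the honey bee the cryptochrome of this loop is Cry2, the type also found in mammals. Foraging bees are active by day and learn at which hour a food source is rewarding, which makes the state of these cells in the morning and at night a question of interest.

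The 4 libraries of 10:00 held 5589770 to 9185744 counts and the 4 of 02:00 held 8030129 to 9529072. The colony 2 libraries of 10:00 stood apart. They had a count for 8483 and 8815 genes, against 9052 to 10444 in the other 25 libraries, and on the first principal component they had scores of 94.7 and 66.0. A library outside the comparison, 06:00 day 11 C2R2, stood apart with a score of 77.6, and the next highest score was 45.1. It was not like the other 2 in all respects. On the second component it scored 50.9, and the colony 2 libraries of 10:00 scored -53.8 and -17.6. Common variation between replicates was also larger in colony 2, with a biological coefficient of variation of 0.375, against 0.179 in colony 1. The calls of the genes named below are given with and without these 3 libraries. Leaving them out keeps no colony 2 library of 10:00, so results for colony 2 and differences between the colonies have no such value.

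The captured tissue was checked against marker genes. All 4 small Kenyon cell genes found in the table (Tk, Ecr, E74 and Foxp) had counts at both times, and their summed level was 1265 to 1714 CPM (counts scaled to the same TMM-adjusted library size) at 10:00 and 1313 to 1696 CPM at 02:00. Mblk-1 and Camkii, known from large and middle Kenyon cells, summed to 4609 to 8719 CPM at 10:00 and 5108 to 6328 CPM at 02:00. The levels of different genes do not give the shares of their cells. None of these 6 genes was called between the times over both colonies, where 6.55% of all genes tested were. In colony 2, Mblk-1 was called higher at 10:00 (log2 difference 0.77, adjusted p = 0.0208), where 11.6% of all genes tested were. The 2 glial genes found, GlnS and Eaat-2, summed to 836 to 1968 CPM at 10:00 and 272 to 702 CPM at 02:00, with no overlap. Outside the comparison, 06:00 day 11 C2R2 was low in Kenyon cell genes, with 1589 CPM of Camkii, 659 CPM of Mblk-1 and 272 CPM of Tk. The colony 2 libraries of 10:00 were not, with 5226 and 6101 CPM of Camkii, 2457 and 2618 CPM of Mblk-1, and 876 and 807 CPM of Tk. In bulk tissue, fewer cells of a type and less RNA per cell cannot be told apart.

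Of 9816 genes tested, 643 (6.55%) were called at 10:00 against 02:00 with an adjusted p under 0.05. These were 291 genes higher at 10:00 (2.96%) and 352 lower (3.59%). Cry2 was among the lower genes, and Hsp90, the neuropeptide receptor gene SIFR, the RNA-editing gene Adar and the glial genes GlnS and Eaat-2 were among the higher. The median log2 difference was 0.83 for the higher genes and -0.77 for the lower, and 105 and 89 of them differed by more than 2-fold. The 4 libraries of 10:00 lay beyond the 4 of 02:00 for 224 of the 291 higher genes and 283 of the 352 lower genes. Over all genes tested, 4.97% had no overlap with 10:00 higher and 7.42% with 10:00 lower, 12.4% in all. When the 3 libraries standing apart were left out, 213 genes (2.13%) were called, 118 higher (1.18%) and 95 lower (0.951%), and 165 of them were among the 643. Of the 36 called genes named here, 13 were also called without them. Of the 643, 24 carry a gene name, 15 higher and 9 lower, and the others are known by a number, as are 11497 of all 12319 identifiers.

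**Figure D1:**
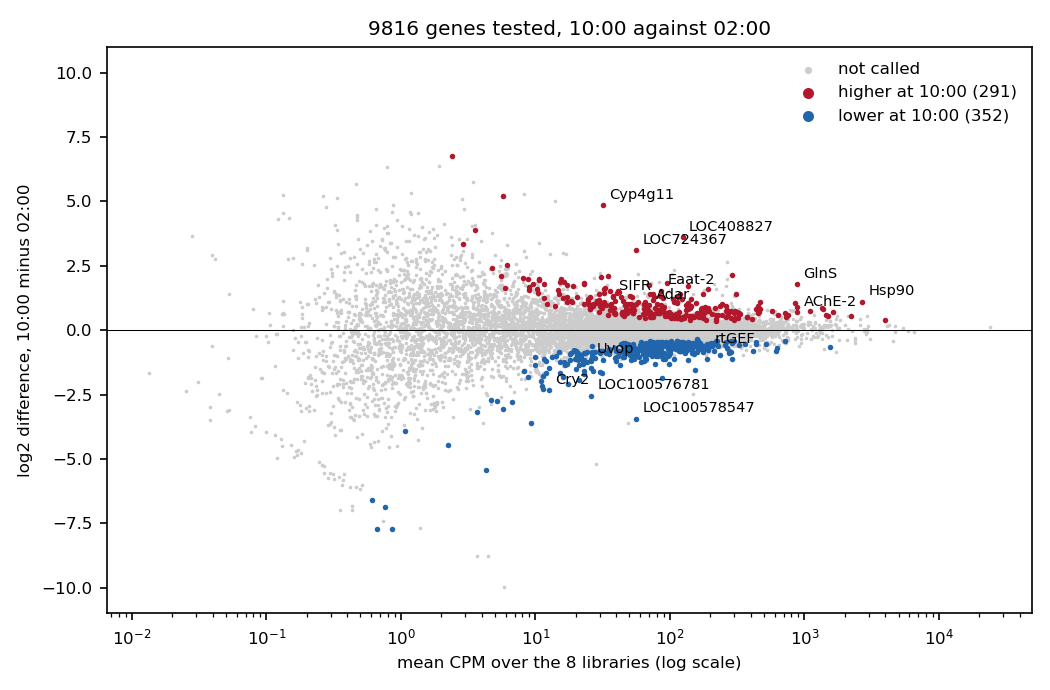
Log2 difference of each of the 9816 genes tested, 10:00 minus 02:00, against its mean CPM over the 8 libraries on a log axis. Red points are the 291 genes called higher at 10:00, blue points the 352 called lower, and grey points the rest, with named examples such as Hsp90 and Cry2 marked.

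The first question for a morning and a night sample is the clock. Cry2 had 3.92 and 0 CPM in the colony 2 libraries of 10:00 and 5.68 and 7.21 CPM in those of colony 1. At 02:00 it had 28.8 and 20.2 CPM in colony 2 and 15.7 and 18.8 CPM in colony 1. All 4 morning libraries lay below all 4 night libraries, and the value of 0 allows up to 0.515 CPM in that library. Cry2 was lower at 10:00, and its fitted value of -2.31 ± 0.52 on the log2 scale (SE) passed the test (adjusted p = 0.00765). It was called in all 8 runs that left out 1 of the libraries, with log2 differences of -2.67 to -1.87. In colony 1 its log2 difference was -1.40 in the fit of that colony's 14 libraries (adjusted p = 0.00521) and -1.42, not called, in the fit of all libraries (adjusted p = 0.399). Without the 3 libraries standing apart it was -1.54 (adjusted p = 0.00571). Among those 3, 06:00 day 11 C2R2 also had a low Cry2 level, 3.95 CPM, against 12.95 and 13.19 CPM in colony 1 at that time.

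Per averaged 29.8 ± 3.26 CPM at 10:00 and 29.0 ± 3.42 CPM at 02:00 (SD, n = 4 each). Its libraries overlapped, and its log2 difference of 0.03 ± 0.23 (SE) was not called (adjusted p = 0.946). Of the core clock list, 2 genes could be matched by name, and 1 of them was called, where 6.55% of all genes tested were. The difference between the Cry2 and Per values was not tested.

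Chaperones help other proteins to fold. Hsp90, an abundant chaperone of the cytosol that matures kinases and receptors, had 4054 and 3852 CPM in the colony 2 libraries of 10:00 and 3324 and 3521 CPM in those of colony 1. At 02:00 it had 1429 and 1921 CPM in colony 2 and 1668 and 1779 CPM in colony 1. The lowest morning library lay well above the highest night library. Hsp90 was 2.15-fold higher at 10:00 (log2 difference 1.11 ± 0.19, SE, adjusted p = 0.00107). It was called in all 8 runs that left out a library and without the 3 libraries standing apart (1.10, adjusted p = 0.00394).

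Cdc37, which delivers kinases to Hsp90, was also higher, at 354 ± 69.9 CPM at 10:00 and 250 ± 23.7 CPM at 02:00 (SD, n = 4 each; log2 difference 0.48 ± 0.12, SE, adjusted p = 0.0173). Its libraries overlapped, and the call was lost when 10:00 C2R2, 02:00 C2R1 or 02:00 C2R2 was left out, with an adjusted p of up to 0.0780. It was also lost without the 3 libraries standing apart (0.36, adjusted p = 0.150). Hsc70-3, the chaperone of the endoplasmic reticulum, had a log2 difference of 0.43 (adjusted p = 0.0613), and Hsc70-4, its counterpart of the cytosol, 0.15 (adjusted p = 0.638). Of 5 chaperone genes, 2 rose and none fell, where 2.96% of all genes tested rose, and without the 3 libraries standing apart 1 rose. The median log2 difference was 0.43, against -0.01 over all genes tested.

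**Figure D2:**
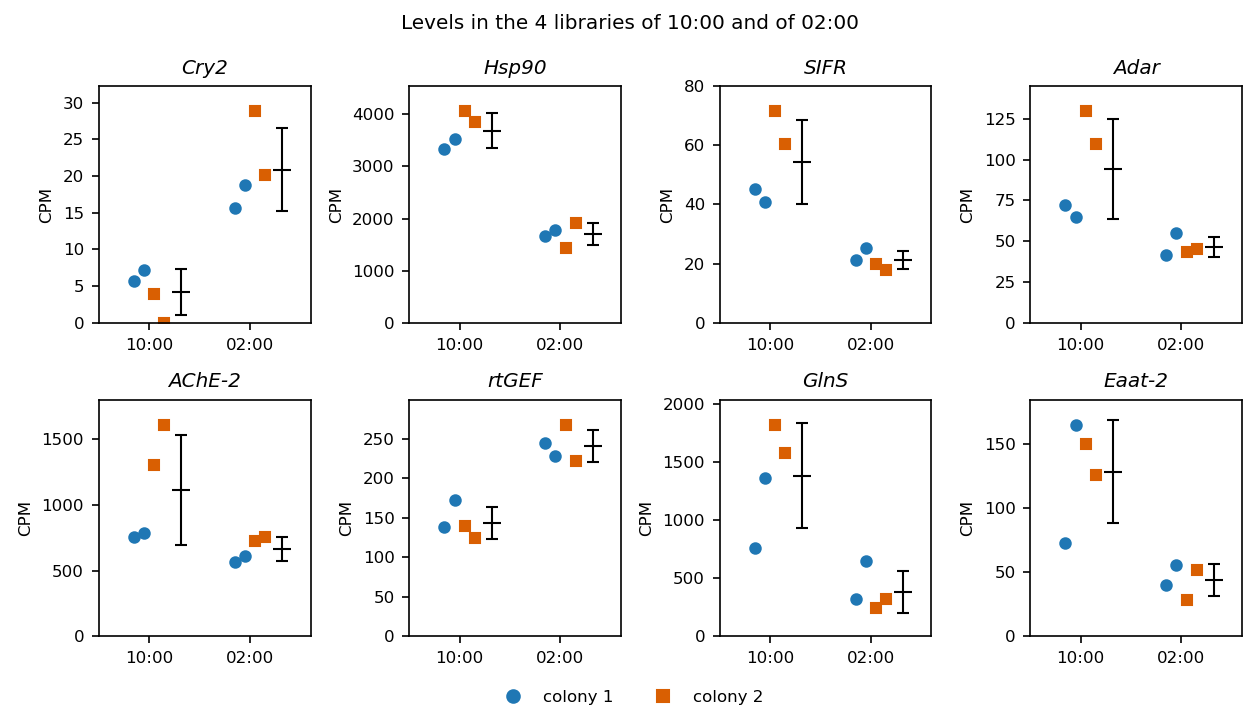
CPM of 8 named genes in each library of 10:00 (left) and of 02:00 (right), with squares for colony 2, circles for colony 1, and mean and SD beside them. The libraries of the times are apart for Cry2, Hsp90, SIFR, Adar, rtGEF, GlnS and Eaat-2, and just overlap for AChE-2.

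Among receptors and transmitter enzymes, SIFR, the receptor of the neuropeptide SIFamide, had 71.4 and 60.3 CPM in the colony 2 libraries of 10:00 and 45.1 and 40.8 CPM in those of colony 1. At 02:00 it had 20.1 and 17.9 CPM in colony 2 and 21.3 and 25.3 CPM in colony 1. The morning libraries were all higher, and the log2 difference was 1.33 ± 0.30 (SE, adjusted p = 0.00827). Without the 3 libraries standing apart it was 0.99 and no longer called (adjusted p = 0.0740). In colony 1 it was 0.90 in the fit of the 14 libraries (adjusted p = 0.0328) and 0.88, not called, in the fit of all libraries (adjusted p = 0.316). SIFR was the 1 gene called of 10 tested on the list of neuropeptides and receptors, close to the 6.55% of all genes. Tk, which encodes tachykinin-related peptides, had 989 ± 217 CPM at 10:00 and 1241 ± 173 CPM at 02:00 (SD, n = 4 each; adjusted p = 0.446).

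Acetylcholine is a main transmitter of the input to Kenyon cells. AChE-2, an acetylcholinesterase, averaged 1111 ± 415 CPM at 10:00 and 664 ± 91.9 CPM at 02:00 (SD, n = 4 each; log2 difference 0.69 ± 0.15, SE, adjusted p = 0.00506). The lowest morning library, at 753 CPM, lay just under the highest night library, at 755 CPM. The receptor subunit gene nAChRa1 had 60.6 and 82.4 CPM in the colony 2 libraries of 10:00 and 59.3 and 54.8 CPM in those of colony 1, against 30.1 and 34.8 CPM in colony 2 and 41.7 and 43.9 CPM in colony 1 at 02:00. It was higher by a log2 difference of 0.77 ± 0.21 (SE, adjusted p = 0.0246), a call lost without 10:00 C2R2, 02:00 C2R1 or 02:00 C2R2 (adjusted p of up to 0.117). These 2 were the called genes among 11 of acetylcholine signalling (median log2 difference 0.17), where 6.55% of all genes tested were called. Neither was called without the 3 libraries standing apart (adjusted p = 0.0970 for AChE-2 and 0.155 for nAChRa1). Among 11 genes of biogenic amine signalling and 10 of synaptic release and adhesion, none was called over both colonies (medians 0.08 and 0.19). Of these, the dopamine receptor gene Dop1 had 376 ± 55.7 CPM at 10:00 and 296 ± 25.5 CPM at 02:00 (SD, n = 4 each; adjusted p = 0.488), and the vesicle protein gene Syt1 had 1085 ± 272 CPM at 10:00 and 901 ± 64.9 CPM at 02:00 (SD, n = 4 each; adjusted p = 0.368). The libraries of Dop1 did not overlap, as for 4.97% of all genes tested with 10:00 higher. In the fit of the 14 colony 1 libraries Dop1 was called higher (log2 difference 0.49, adjusted p = 0.0391), where 3.22% of all genes tested were. Without the 3 libraries standing apart it was not called (0.40, adjusted p = 0.364).

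Genes that shape excitability and calcium signals followed. Adar, whose enzyme edits adenosines in neuronal transcripts, had 129 and 110 CPM in the colony 2 libraries of 10:00 and 72.1 and 65.0 CPM in those of colony 1, against 43.5 and 45.5 CPM in colony 2 and 41.7 and 54.9 CPM in colony 1 at 02:00. It was higher at 10:00 with no overlap (log2 difference 0.97 ± 0.19, SE, adjusted p = 0.00278). Amih, the channel of the hyperpolarization-activated current, had 114 ± 38.2 CPM at 10:00 and 61.6 ± 3.78 CPM at 02:00 (SD, n = 4 each; log2 difference 0.83 ± 0.17, SE, adjusted p = 0.00335). Ip3k, a kinase that acts on the calcium-releasing messenger inositol trisphosphate, had 81.9 ± 16.1 CPM at 10:00 and 47.1 ± 6.91 CPM at 02:00 (SD, n = 4 each; log2 difference 0.81 ± 0.16, SE, adjusted p = 0.00335). All 3 were called in every run that left out 1 of the 8 libraries. Amih stayed called without the 3 libraries standing apart (0.58, adjusted p = 0.0336), while Adar, at 0.67, and Ip3k, at 0.45, did not (adjusted p = 0.0768 and 0.146). Adar and Amih were the 2 called of 9 genes on the list of ion channels and RNA editing, and Ip3k was the 1 called of 9 for cyclic nucleotide and calcium signalling, where 6.55% of all genes tested were called. These lists held 1 and 0 called genes without the 3 libraries. The strand setting of the authors' counting is not given in the sources used here, and 13 of the 36 called genes named here overlap another gene in the RefSeq table. These are Adar, Amih, Ip3k, SIFR, GlnS, Eaat-2, uzip, rtGEF, IF-2mt, LOC408827, LOC551165, LOC410562 and LOC100578547, and reads of overlapping partners may be mixed in their values.

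Glia take up glutamate released by neurons and turn it into glutamine. GlnS, glutamine synthetase, had 1818 and 1580 CPM in the colony 2 libraries of 10:00 and 763 and 1365 CPM in those of colony 1. At 02:00 it had 245 and 318 CPM in colony 2 and 322 and 647 CPM in colony 1. The times did not overlap, and the log2 difference was 1.78 ± 0.47 (SE, adjusted p = 0.0264). Eaat-2, a glutamate transporter, had 150 and 126 CPM in the colony 2 libraries of 10:00 and 72.7 and 165 CPM in those of colony 1, against 28.0 and 52.1 CPM in colony 2 and 39.9 and 55.5 CPM in colony 1 at 02:00. Its libraries did not overlap either, with a log2 difference of 1.53 ± 0.40 (SE, adjusted p = 0.0229).

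The glial calls depended on single libraries. GlnS was called in 2 and Eaat-2 in 3 of the 8 runs that left out a library, with adjusted p of up to 0.112 and 0.102 in the others. Without the 3 libraries standing apart their log2 differences were 1.45 and 1.41 (adjusted p = 0.163 and 0.142). Among those 3, 06:00 day 11 C2R2 had 2489 CPM of GlnS and 211 CPM of Eaat-2, above every library of 10:00. Of 10 genes of glutamate, GABA and histamine signalling, Eaat-2 was the 1 called (6.55% of all genes were), and 9 had a log2 difference above 0, where 48.8% of all genes tested did. Both glial genes moved with the comparison, and their part in the other differences was not tested.

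Among the remaining named genes that rose, Fabp, which binds fatty acids, had 1171 ± 501 CPM at 10:00 and 532 ± 67.7 CPM at 02:00 (SD, n = 4 each; log2 difference 1.04 ± 0.22, SE, adjusted p = 0.00464). The table holds a copy, Fabp_1, with a log2 difference of 0.74 (adjusted p = 0.0819), and reads may be split between the copies. The adhesion protein gene uzip, known from axon guidance in Drosophila, had 597 ± 138 CPM at 10:00 and 307 ± 42.0 CPM at 02:00 (SD, n = 4 each; log2 difference 0.92, adjusted p = 0.00612). Mir6058, listed as a microRNA gene, had 63.2 ± 25.4 CPM at 10:00 and 30.6 ± 6.94 CPM at 02:00 (SD, n = 4 each; adjusted p = 0.00617), with overlapping libraries. The libraries hold polyadenylated RNA, so this value does not measure the mature microRNA. GstS1, a glutathione transferase and the 1 called of 10 antioxidant genes (6.55% of all genes were), had 561 ± 101 CPM at 10:00 and 345 ± 54.2 CPM at 02:00 (SD, n = 4 each; adjusted p = 0.0253). Cyp4g11, a cytochrome P450 of a family that makes cuticular hydrocarbons in insects, had 225 CPM in 10:00 C2R2 and 4.34 to 11.0 CPM in the other 3 libraries of 10:00, against 0.71 to 2.12 CPM at 02:00. It was also high in 14:00 C2R2, at 144 CPM, with 1.52 to 5.65 CPM in the remaining libraries of 14:00. Its log2 difference of 4.85 ± 1.43 (SE, adjusted p = 0.0467) was 2.41 without 10:00 C2R2, and the call was lost in 5 of the 8 runs. GstS1 was called in 2 of the 8 runs, with an adjusted p of up to 0.120 in the others. Fabp was called without the 3 libraries standing apart (0.72, adjusted p = 0.0308), and uzip, Mir6058, GstS1 and Cyp4g11 were not (adjusted p = 0.0511, 0.0933, 0.0957 and 0.385).

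Named genes that fell came from several functions. The guanine nucleotide exchange factor gene rtGEF had 139 and 124 CPM in the colony 2 libraries of 10:00 and 138 and 172 CPM in those of colony 1, against 267 and 222 CPM in colony 2 and 245 and 228 CPM in colony 1 at 02:00. The times did not overlap, and rtGEF had the smallest adjusted p of the named genes, 0.000420, with a log2 difference of -0.75 ± 0.12 (SE). INTS8, a subunit of the Integrator complex that processes small nuclear RNAs, had 49.4 and 110 CPM in the colony 2 libraries of 10:00 and 101 and 106 CPM in those of colony 1, against 152 to 176 CPM at 02:00 (log2 difference -0.90 ± 0.19, SE, adjusted p = 0.00552). Both were called in all 8 runs that left out a library and without the 3 libraries standing apart (adjusted p = 0.00299 for rtGEF and 0.00274 for INTS8).

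Other falls were lost more easily when libraries were left out. Dnmt1a, a DNA methyltransferase, averaged 23.8 ± 10.7 CPM at 10:00 and 42.7 ± 5.82 CPM at 02:00 (SD, n = 4 each; adjusted p = 0.0156). Its log2 difference was -1.59 in colony 2 and -0.26 in colony 1. The glycosyltransferase gene egh averaged 56.1 ± 27.7 CPM at 10:00 and 88.9 ± 5.45 CPM at 02:00 (SD, n = 4 each; adjusted p = 0.0208), with log2 differences of -1.48 in colony 2 and -0.14 in colony 1. SPG11, IF-2mt (a mitochondrial translation initiation factor) and Adk1 fell by log2 differences of -0.59, -0.49 and -0.44 (adjusted p = 0.0204, 0.0379 and 0.0254). Each of these 5 calls was lost in 3 to 6 of the 8 runs that left out a library, and none was called without the 3 libraries standing apart (adjusted p of 0.0624 to 0.372).

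Genes known by a number held large differences without overlap. LOC408827 had 262 and 237 CPM in the colony 2 libraries of 10:00 and 113 and 308 CPM in those of colony 1, against 9.09 and 18.8 CPM in colony 2 and 14.95 and 30.3 CPM in colony 1 at 02:00 (log2 difference 3.62 ± 0.59, SE, adjusted p = 0.00144). LOC724367 had 67.7 to 126 CPM at 10:00 and 6.35 to 15.9 CPM at 02:00 (log2 difference 3.10, adjusted p = 0.00628). LOC410562 had 44.2 to 54.6 CPM at 10:00 and 7.08 to 14.8 CPM at 02:00 (log2 difference 2.07, adjusted p = 0.000724). All 3 were also called without the 3 libraries standing apart (adjusted p = 0.00394, 0.0325 and 0.00265). LOC726302, LOC551165 and LOC100576161 rose by log2 differences of 1.99, 2.12 and 2.00 (adjusted p = 0.00552, 0.0181 and 0.0282). Without those 3 libraries LOC726302 stayed called (adjusted p = 0.00455), and LOC551165 and LOC100576161 did not (adjusted p = 0.114 and 0.0933).

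On the other side, LOC100578547 had 0 and 9.62 CPM in the colony 2 libraries of 10:00 and 18.7 and 11.2 CPM in those of colony 1. At 02:00 it had 144 and 81.6 CPM in colony 2 and 104 and 78.9 CPM in colony 1. It was the lower gene with the largest difference among those named, at -3.44 ± 0.65 on the log2 scale (SE, adjusted p = 0.00372). Without the 3 libraries standing apart its value was -2.77 (adjusted p = 0.000173). Among those 3, 06:00 day 11 C2R2 was also low, at 9.64 CPM, against 148.8 and 87.7 CPM in colony 1 at that time. LOC100576781 had 3.78 to 11.6 CPM at 10:00 and 28.6 to 73.1 CPM at 02:00 (log2 difference -2.54, adjusted p = 0.00334). LOC102653784, LOC100578255, LOC102653951 and LOC100576592 fell by log2 differences of -2.28, -2.15, -2.09 and -1.97 (adjusted p = 0.0315, 0.0125, 0.00675 and 0.0282). Each of these had 0 counts in a colony 2 library of 10:00 and 15 to 41 counts in the other. The 0 was in C2R2 for LOC100578255 and in C2R1 for the rest. LOC100576781 and LOC102653951 stayed called without the 3 libraries (adjusted p = 0.0304 and 0.00394). LOC102653784, LOC100578255 and LOC100576592 did not, at -1.50, -1.36 and -1.55 (adjusted p = 0.0658, 0.0529 and 0.0933). Of the 12 genes known by a number, 7 were called in all 8 runs that left out a library.

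The course over the day was read at the 7 time points. Of the 291 higher genes, 268 had their highest mean at 10:00 and 199 their lowest at 02:00. Of the 352 lower genes, 333 had their lowest mean at 10:00, 208 their highest at 02:00 and 70 at 06:00 of day 12. Since the genes were chosen on these times, this is a description. The median level of the higher genes over their 02:00 mean (log2, with 0.5 CPM added) was 0.34 at 06:00 of day 11, 0.85 at 10:00, 0.50 at 14:00, 0.34 at 18:00, 0.20 at 22:00 and 0.19 at 06:00 of day 12. That of the lower genes was -0.19, -0.71, -0.40, -0.26, -0.14 and -0.11 at the same times. Cry2 kept this order less closely, with its highest mean at 22:00 (25.01 CPM) and 20.9 CPM at 02:00.

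**Figure D3:**
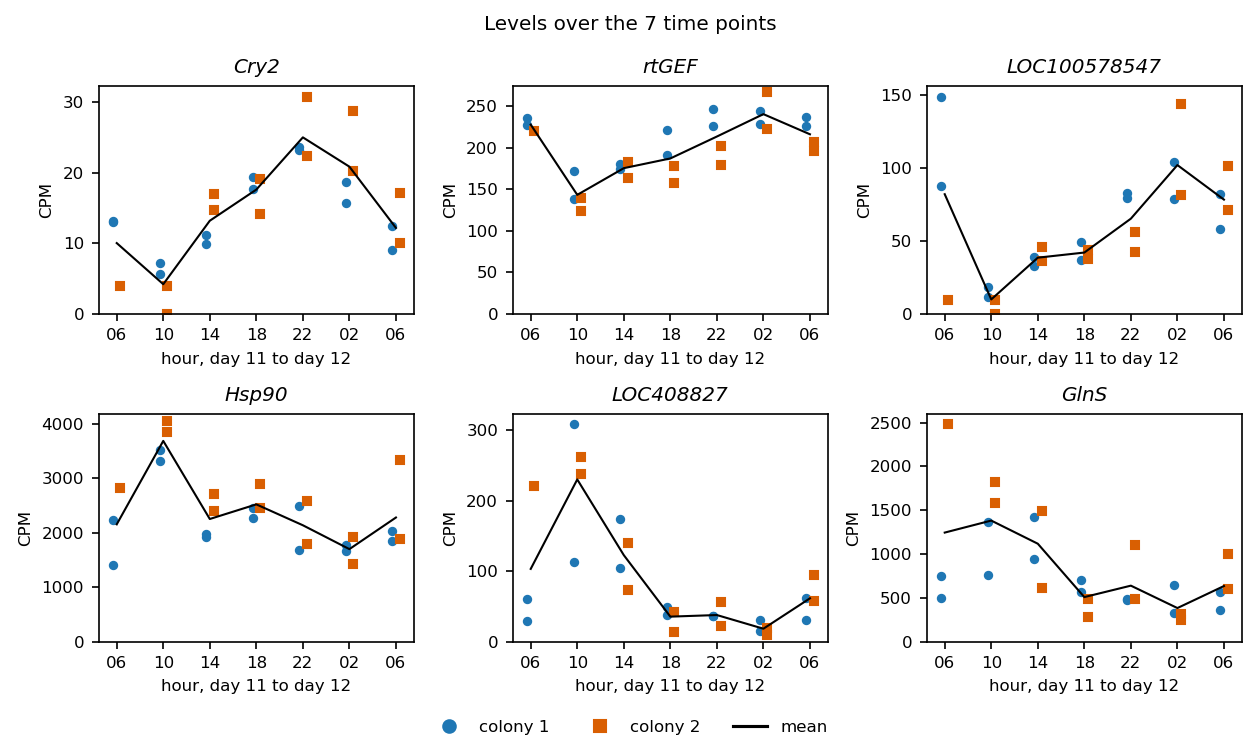
CPM of 6 genes in all 27 libraries over the 7 time points, with squares for colony 2, circles for colony 1 and a line for the mean of each time. Cry2, rtGEF and LOC100578547 have their lowest mean at 10:00, and Hsp90, LOC408827 and GlnS their highest there and their lowest at 02:00.

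The comparison of 14:00 with 22:00 set other libraries against each other than the contrast that chose the genes. These libraries were not outside that choice, since they entered the same fit and with it the filter, the colony term and the spread of each gene. Of the 291 genes higher at 10:00 than at 02:00, 266 (91.4%) were also higher at 14:00 than at 22:00, against 51.1% of all genes tested, with a median log2 difference of 0.31. Of the 352 lower genes, 335 (95.2%) were lower at 14:00 than at 22:00, against 48.9% of all genes tested, with a median of -0.26. In colony 2 the shares were 73.5% for the higher genes and 85.8% for the lower, and in colony 1 they were 94.8% and 94.0%. On the first principal component, the 14:00 libraries scored 45.05 and 1.58 in colony 2 and -4.1 and -1.3 in colony 1. Those of 22:00 scored 7.78 and 9.81 in colony 2 and -25.55 and -21.3 in colony 1. The part of this component in the shared directions was not tested. Single genes did not pass between 14:00 and 22:00: edgeR called 0 genes there, and 566 of 9816 had an unadjusted p under 0.05. For the named genes, the 14:00 minus 22:00 log2 difference was -0.92 for Cry2, 1.71 for LOC408827, 0.85 for GlnS, 0.95 for Eaat-2 and 0.06 for Hsp90.

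The colonies, whose experiments were separate, differed in how many genes passed. In the fit of all libraries, colony 2 gave 2748 called genes (28.0%), 1135 higher and 1613 lower at 10:00, and colony 1 gave 38 (0.387%), 26 higher and 12 lower. Of the 2748 colony 2 genes, 66.0% had the same direction in colony 1, and of the 38 colony 1 genes 34 had the same direction in colony 2, where 58.3% of all genes tested shared their direction. Fitted with its own libraries alone, colony 2 gave 1244 called genes (12.2%) and colony 1 gave 546 (5.67%), 310 higher (3.22%) and 236 lower (2.45%). Of these 546, 431 (78.9%) had the same direction in the separate fit of colony 2. The median log2 difference of the 291 higher genes was 1.00 in colony 2 and 0.66 in colony 1, and that of the 352 lower genes -1.10 in colony 2 and -0.42 in colony 1. Both colony 2 libraries of 10:00 are among those standing apart, so colony and library cannot be told apart in this difference.

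The difference between 10:00 and 02:00 itself differed between the colonies for 686 genes (6.99%), 227 (2.31%) with a larger value in colony 2 and 459 (4.68%) with a smaller one (278 and 349 of 627 with upper-quartile scaling). The count was 62 with only the 8 libraries, 220 with limma-voom and quality weights, and 248 to 1336 when 1 library was left out. Among the lists, the ribosomal protein genes, parts of the machinery of protein synthesis, held the largest share of called genes. Rps14, a protein of the small ribosomal subunit, had 1229 and 1175 CPM in the colony 2 libraries of 10:00 and 725 and 554 CPM in those of 02:00. In colony 1 it had 471 and 496 CPM at 10:00 and 569 and 606 CPM at 02:00. Its log2 difference was 0.91 in colony 2 and -0.28 in colony 1, and the difference between the colonies was 1.19 ± 0.19 (SE, adjusted p = 0.00131). Rpl41 had log2 differences of 0.94 in colony 2 and -0.54 in colony 1 (adjusted p = 0.00131 for the difference), and RpLP1 1.26 in colony 2 and -0.11 in colony 1 (adjusted p = 0.00243). These levels were also high in the third library standing apart, taken at another hour. In 06:00 day 11 C2R2, Rps14 had 1362 CPM, Rpl41 620.2 CPM and RpLP1 1261 CPM, each above both colony 2 libraries of 10:00, where Rpl41 had 446 and 501 CPM and RpLP1 833 and 896 CPM. The 36 called genes named here were mixed in 06:00 day 11 C2R2, with more of them at their level of 10:00 than on the side of 02:00. GlnS (2489 CPM), Eaat-2 (211 CPM), LOC408827 (221 CPM), Cry2 (3.95 CPM) and LOC100578547 (9.64 CPM) lay within or beyond their range at 10:00. The same held for SIFR (69.2 CPM), Fabp (1341 CPM), uzip (754 CPM), Amih (143 CPM), AChE-2 (1108 CPM), Cdc37, GstS1, Mir6058 and Cyp4g11. It also held for INTS8, Dnmt1a, egh, SPG11, IF-2mt, Adk1, LOC551165, LOC100576781, LOC102653784 and LOC102653951. Hsp90 (2818 CPM), Adar (52.7 CPM), Ip3k (48.7 CPM) and rtGEF (220 CPM) lay outside that range, on the side of 02:00. So did nAChRa1, Uvop, LOC724367, LOC410562, LOC100576161, LOC726302, LOC100578255 and LOC100576592. The part of the libraries standing apart in these differences was not tested. In colony 2, the hour of 10:00 and the libraries standing apart cannot be told apart.

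Of 6 named ribosomal protein genes, 4 were called higher at 10:00 in colony 2 and none in colony 1 in the same fit. All 6 had values above 0 in colony 2 and below 0 in colony 1, also with RLE and upper-quartile scaling, and 4 passed the test of the difference. Their median log2 difference was 0.79 in colony 2 and -0.31 in colony 1, against -0.03 and 0.00098 over all genes tested. In the fit of the 14 libraries of colony 1, 2 of the 6 were called lower at 10:00, where 2.45% of all genes tested were. Over both colonies none of the 6 was called, where 6.55% of all genes tested were. Of 9 named mitochondrial genes, 7 were called higher in colony 2, none in colony 1, and 4 passed the test of the difference (median log2 difference 0.63 in colony 2 and -0.13 in colony 1). ATP5G2, a subunit of ATP synthase, had 1616 and 1444 CPM at 10:00 and 1009 and 952 CPM at 02:00 in colony 2, and 858 and 1010 CPM at 10:00 and 931 and 912 CPM at 02:00 in colony 1 (adjusted p = 0.0513 for the difference). Of 10 antioxidant genes, 7 were called higher in colony 2, none in colony 1, and 2 passed the test of the difference (median 0.83 in colony 2 and 0.05 in colony 1). Background for these counts is the 11.6% of genes called higher in colony 2 and the 2.31% called with a larger value there. They come from the fit that shares its spread between the colonies, although variation was 0.375 in colony 2 and 0.179 in colony 1. That fit calls more genes in colony 2 and fewer in colony 1 than separate fits did. In the fit of the 14 libraries of colony 1, none of the 9 mitochondrial and 10 antioxidant genes was called, where 5.67% of all genes tested were.

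**Figure D4:**
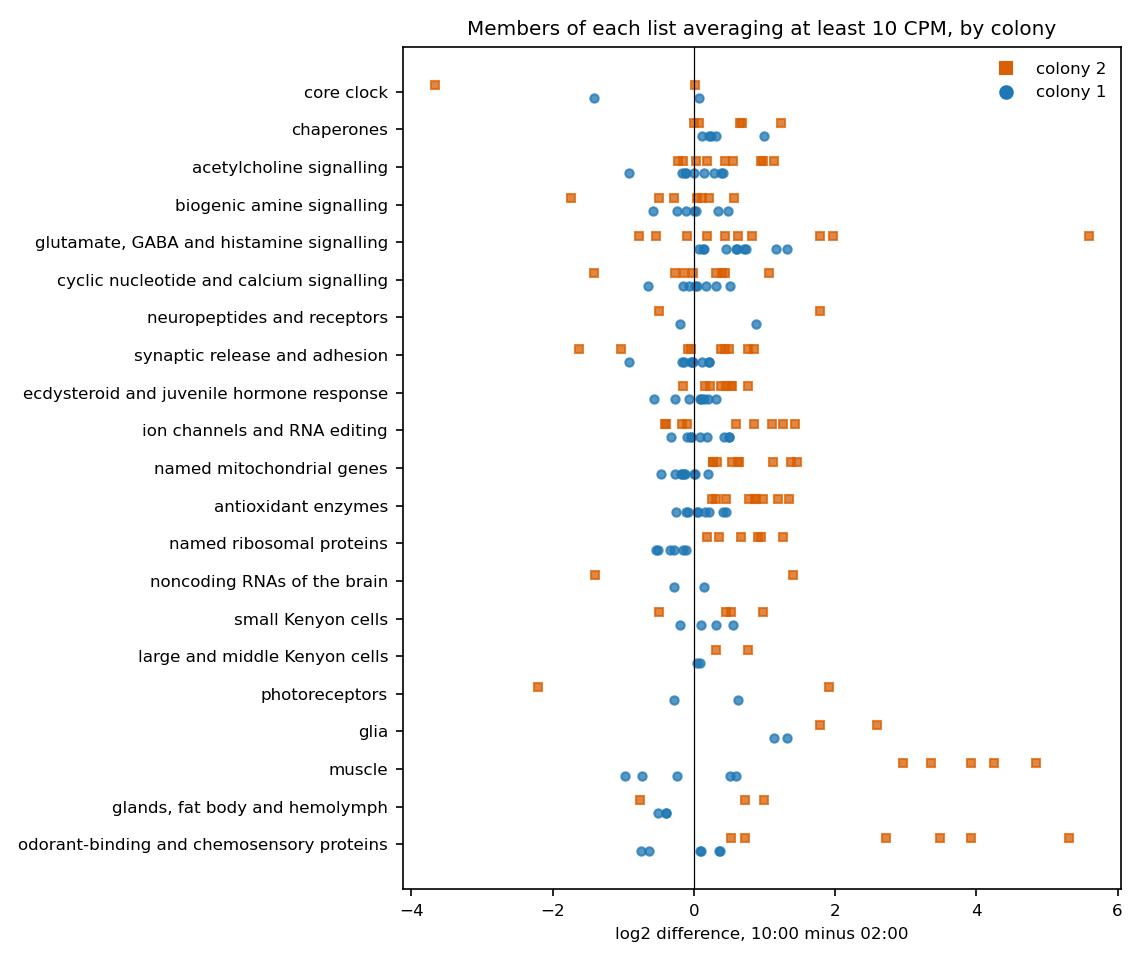
Log2 difference, 10:00 minus 02:00, of the members of each gene list that average at least 10 CPM, with squares for colony 2 and circles for colony 1. Ribosomal protein genes lie above 0 in colony 2 and below 0 in colony 1, and both glial genes lie above 0 in both colonies.

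Other genes moved mainly in colony 2. The ultraviolet opsin gene Uvop, called lower over both colonies (log2 difference -1.11, adjusted p = 0.0204), had 9.14 and 6.01 CPM at 10:00 and 26.3 and 43.5 CPM at 02:00 in colony 2. In colony 1 it had 26.7 and 28.0 CPM at 10:00 and 35.5 and 30.7 CPM at 02:00. The call was lost without 10:00 C2R1, 10:00 C2R2 or 02:00 C2R2 (adjusted p of up to 0.110), and without the 3 libraries standing apart the value was -0.53 (adjusted p = 0.367). Its difference between colonies was -1.93 ± 0.44 (SE, adjusted p = 0.00983). Ancr-1, a noncoding RNA known from the bee brain, had 784 and 798 CPM at 10:00 and 2215 and 1953 CPM at 02:00 in colony 2, and 1931 and 1682 CPM at 10:00 and 2262 and 2148 CPM at 02:00 in colony 1. Over both colonies it was not called (log2 difference -0.86, adjusted p = 0.0698), and its difference between colonies was -1.11 ± 0.26 (SE, adjusted p = 0.0108).

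**Figure D5:**
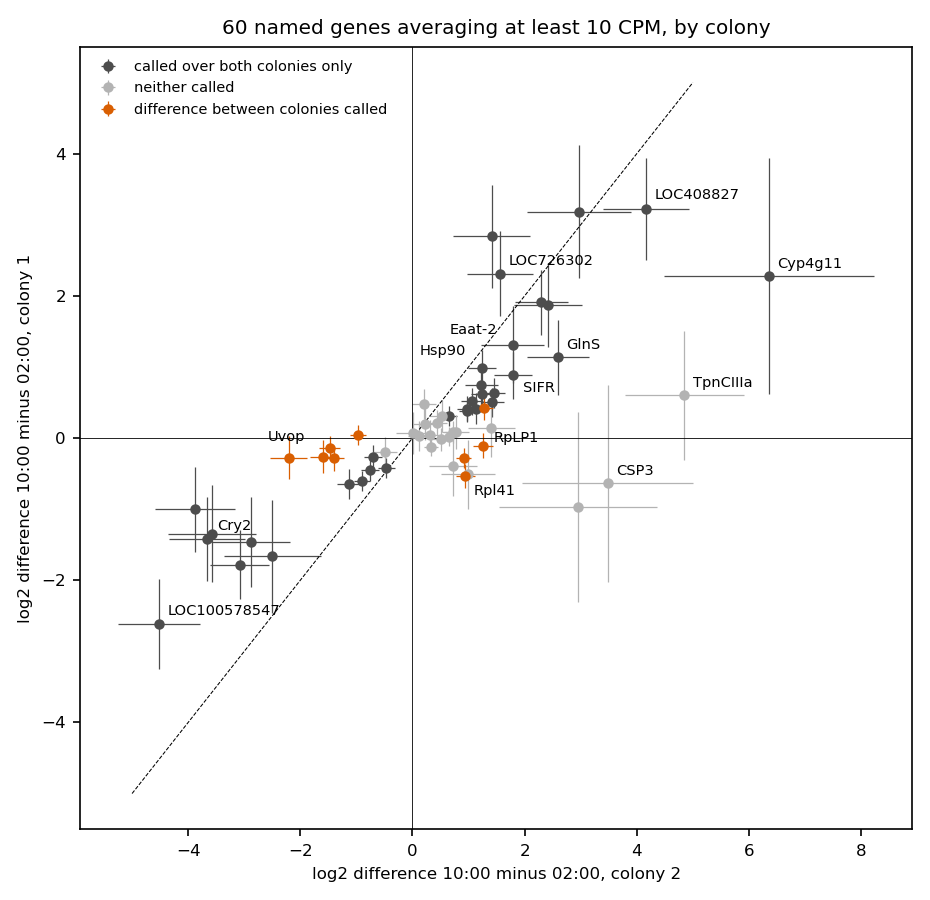
Log2 difference, 10:00 minus 02:00, in colony 2 (horizontal) and colony 1 (vertical) for the 60 named genes averaging at least 10 CPM, with SE bars and a dashed line of equal values. Orange points are genes whose difference between colonies was called, such as Uvop, Rpl41 and RpLP1, dark points genes called over both colonies only, and grey points neither.

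Markers of tissues near the mushroom body were read beside these results. The summed level of 7 troponin genes of muscle was 705 and 196 CPM in the colony 2 libraries of 10:00 and 97.6 and 87.6 CPM in those of colony 1, against 50.9 and 19.2 CPM in colony 2 and 43.5 and 169 CPM in colony 1 at 02:00. The 4 opsins of photoreceptors summed to 375 and 349 CPM in the colony 2 libraries of 10:00 and 43.3 and 106 CPM in those of colony 1, against 42.3 to 176 CPM at 02:00. Odorant-binding and chemosensory protein genes, 24 in all, summed to 2190 and 2074 CPM in the colony 2 libraries of 10:00 and 638 and 723 CPM in those of colony 1, against 359 to 1135 CPM at 02:00. The 15 genes of glands, fat body and hemolymph summed to 41.0 to 94.3 CPM at 10:00 and 46.6 to 79.6 CPM at 02:00, and Vg among them was not tested for want of counts. Over both colonies, none of 6 muscle, 11 gland and 11 odorant-binding or chemosensory genes tested was called, and Uvop was the 1 of 4 photoreceptor genes, where 6.55% of all genes tested were called. In colony 2, 3 of the 6 muscle genes (median log2 difference 3.64) and 2 of the 11 odorant-binding or chemosensory genes were called higher at 10:00, and of the 4 photoreceptor genes 1 was called higher and 1 lower. Of all genes tested, 11.6% were called higher and 16.4% lower in colony 2. The part of these markers in the differences of colony 2 was not tested.

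Further lists held no called gene over both colonies, where 6.55% of all genes tested were called. These were 9 genes of the ecdysteroid and juvenile hormone response, 4 small Kenyon cell genes, 2 large and middle Kenyon cell genes and 3 noncoding RNAs of the brain. Mblk-1, a transcription factor gene of the first list, had 1999 ± 663 CPM at 10:00 and 1432 ± 118 CPM at 02:00 (SD, n = 4 each; adjusted p = 0.326). E75, an ecdysone-induced nuclear receptor gene, had 886 ± 127 CPM at 10:00 and 763 ± 102 CPM at 02:00 (SD, n = 4 each; adjusted p = 0.616). Kakusei, a noncoding RNA induced in active neurons of bees, had few counts, with 0 to 1.72 CPM at 10:00 and 0 to 1.18 CPM at 02:00, and a difference was not detectable at this depth (adjusted p = 0.543).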

How the data were processed

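Per the labels' protocols, polyadenylated RNA was made into libraries with a stranded kit. The authors deposited raw counts per gene, 12319 identifiers in 27 libraries. The submitters' processing notes name Trimmomatic, FastQC, STAR, featureCounts and DESeq2. Build, annotation and strand setting are not given in the sources used here. For that reason no coordinates or sequences are given. At 06:00 of day 11, colony 2 had 1 library here, C2R2. Of the identifiers, 12166 equalled a symbol in a RefSeq table (Amel_HAv3.1), used for names and overlaps.

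Counts were tested with edgeR 4.0.16 (R 4.3.3): filterByExpr (9816 genes, at least 99.97% of counts), TMM, glmQLFit (robust) and glmQLFTest on all 27 libraries with time and colony as terms, or 1 term per colony and time for contrasts within and between colonies. P-values were adjusted by Benjamini-Hochberg over all genes tested and called under 0.05. Each SE is the absolute log2 difference divided by √F. A count of 0 allows 3 counts, a floor for counting error only. Replicates differed beyond sampling noise (chi-square per degree of freedom of at least 18). Alternatives used DESeq2 1.42.0, limma 3.58.1, other scalings, filters and libraries. In simulated counts with 200 changed genes, the contrast of times recovered 30% of 1.5-fold, 71% of 2-fold and 98% of 4-fold changes. The test between colonies recovered 0%, 8% and 66%. False calls made up 3.57% and 6.82% of the calls. The simulation gave both colonies the same spread, unlike the data. Its changed genes were drawn from those averaging at least 10 CPM, so the rates do not cover less abundant genes. Its spread came from the fit with time and colony as terms, also for the test between colonies, which uses another fit. The recovery given for that test is therefore only a rough guide.

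The comparison, the 22 lists and the naming rule were chosen with earlier results of these data known. The rule named up to 12 called genes with names in each direction averaging at least 10 CPM, the 6 largest non-overlapping LOC genes in each direction, up to 4 called or 2 abundant members of each list, the clock genes, and 5 genes of the colony test. A further gene that met it is left out here, also from its list, but stayed in the fits. Other list members and Fabp_1 were named after their values were seen.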

Additional observations from a re-analysis of the deposited data

Results flagged for a closer look

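Among 122 groups of 4 libraries, one for each named gene at each time with any spread, 6 held a library far from the other 3, where chance gives about 1 in 20. Cyp4g11 had 225 CPM in 10:00 C2R2. INTS8 had 49.4 CPM in 10:00 C2R1 and, on the other side, 152 CPM in 02:00 C1R2. TpnCIIIa, a troponin gene, had 285 CPM in 10:00 C2R1. Mblk-1 had 1255 CPM in 02:00 C1R2, and Kakusei 1.18 CPM in 02:00 C1R1.

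The difference between 10:00 and 02:00 differed between the colonies for 686 genes by edgeR's test of the difference. Among the named genes, the colony 2 value minus the colony 1 value on the log2 scale was 1.48 for Rpl41, 1.37 for RpLP1, 1.19 for Rps14 and 0.85 for Amih. It was -1.93 for Uvop, -1.34 for egh, -1.33 for Dnmt1a, -1.11 for Ancr-1 and -1.01 for STT3B, a subunit of the enzyme that attaches sugars to new proteins. Amih, Uvop, egh, Dnmt1a and Ancr-1 had values of the same sign in both colonies.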

How the results depend on the processing

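The count of 643 genes called between 10:00 and 02:00 was 536 to 652 under RLE and upper-quartile scaling, no filter and limma-voom. It was 1060 with DESeq2, 1020 with limma-voom and quality weights, 178 with only the 8 libraries, 213 without the 3 libraries standing apart, 2748 for colony 2 and 38 for colony 1 in the fit of all libraries, and 1244 in the fit of the 13 colony 2 libraries, which was added after the data were seen. Leaving out 1 of the 8 libraries gave 205 to 885 genes: 205 without 02:00 C2R1, 293 without 02:00 C2R2, 316 without 10:00 C2R2 and 361 without 10:00 C2R1. Without 06:00 day 11 C2R2 it was 1207. In all 8 of those runs 176 of the 643 were called (84 higher, 92 lower). With replicates of a colony and time summed, edgeR called 0 genes (1020 at an unadjusted p under 0.05). The labels do not say what a replicate number marks. Deviations of same-numbered libraries of 10:00 and 02:00 correlated at 0.011 in colony 2 and 0.242 in colony 1, so pairing by number was not taken as given. In colony 1, C1R2 scored above C1R1 on the first principal component at all 7 time points, a hint from the data and not the design. With the replicate block the count was 541, and 10 with the block and only the 8 libraries.

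The count of 686 genes that differed between colonies was 605 to 675 under the other scalings, no filter and limma-voom, 1094 with DESeq2, 220 with limma-voom and quality weights, 62 with only the 8 libraries, and 248 to 1336 when 1 library was left out. It was 301 without 10:00 C1R1, 1336 without 10:00 C2R2, 363 without 02:00 C1R1, 248 without 02:00 C1R2 and 359 without 02:00 C2R2. Where the cause is not given by the number of libraries, the cause was not tested.

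The 36 called named genes kept their direction in all 864 values under 24 alternatives, and the call was lost in 259. Of 597 values of the 25 uncalled named genes, 37 had the opposite sign, and 33 were called in the same direction. In colony 1 in the fit of all libraries the opposite log2 differences were -0.019 for Syt1, -0.13 for CytC, -0.28 for Rps14, -0.97 for TpnCI, -0.39 for Mrjp7, -0.51 for Mrjp8, -0.64 for CSP3, -0.54 for Rpl41, -0.11 for RpLP1 and 0.045 for STT3B. In the 14 libraries of colony 1 they were -0.0040, -0.12, -0.27, -0.96, -0.38, -0.49, -0.62, -0.52, -0.095 and 0.060 for the same genes, of which Rpl41 was called (adjusted p = 0.00869). Without the 3 libraries standing apart they were -0.076 for CytC, -0.18 for Rps14, -0.25 for TpnCI, -0.50 for Mrjp7, -0.30 for Mrjp8, -0.044 for Per and -0.36 for Rpl41. With limma-voom and quality weights they were -0.0036 for 5-HT1, -0.031 for CytC, -0.16 for Mrjp7, -0.17 for Mrjp8 and -0.19 for Rpl41. Over the runs that left out 1 library the range was -0.12 (without 10:00 C2R1) to 2.05 for TpnCI, -0.19 to 0.42 for Mrjp7, -0.17 to 0.65 for Mrjp8 and -0.063 to 0.16 for Per, the lowest of these 3 without 10:00 C2R2. Per was also opposite, at -0.041, without 02:00 C1R2.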
